A study of Danio rerio with 11 samples.

Results

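The genes described here code for the factors that start and carry on protein synthesis. They were taken by name from the tables of zebrafish genes paired with a human ortholog, as every gene whose name begins with eif or eef and a digit, or with etf1 or gspt1, leaving out the kinases named eif2ak. This gave 36 of 9411 genes, most of them for initiation or elongation factors or their regulators, with no release factor. Membership rests on the name, which also brings in eif4a3, a helicase of the exon junction complex, and eif1ad.

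In eukaryotes, initiation factors (eIFs) bring the small ribosomal subunit, the initiator transfer RNA and a capped mRNA together, and elongation factors (eEFs) then carry aminoacyl transfer RNA to the ribosome and move it along the message. Protein synthesis is among the most energy-demanding processes of a cell, and the liver, which makes most plasma proteins, carries it out at a high rate. It is commonly slowed by holding eIF4E with its binding protein 4E-BP, by blocking the exchange factor eIF2B through phosphorylated eIF2, and by phosphorylating eEF2, all steps at the protein level that an mRNA count does not see.

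RNA was sequenced from the livers of adult zebrafish of strain AB in 3 treated groups and a control group. The 18.5-mel group (2 libraries) was kept at 18.5 °C with 24 µM melatonin, a state that the study calls induced torpor. The 28.5-rad group (3 libraries) received 32.64 cGy of whole-body radiation at 28.5 °C without melatonin, and the 18.5-mel-rad group (4 libraries) received 32.64 cGy at 18.5 °C with 24 µM melatonin. The 28.5-Ctrl group (2 libraries) stayed at 28.5 °C with neither. The torpor model joins cold and sedation, so in 18.5-mel the effects of temperature and of melatonin cannot be told apart. The labels do not give the sex of the fish or say whether a library holds 1 liver or several. The deposited tables give each gene's mean normalised count over all libraries of the fit and its log2 fold change against 28.5-Ctrl with a standard error, rather than a value for each library. Levels below are therefore group means estimated from these values, in normalised counts that are not divided by gene length, so they compare groups for 1 gene and not genes with each other. A gene was called upregulated or downregulated at an adjusted p of at most 0.1 (2-sided Wald test, Benjamini-Hochberg adjustment over all zebrafish genes tested) and a change of at least 1.5-fold, which is 0.58 on the log2 scale. The 3 comparisons share the same 2 control libraries, so their values are not independent of each other.

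The groups differed in more than these genes. Summed over all genes, the estimated counts came to 15022100 for 18.5-mel, 28995900 for 28.5-rad, 38556300 for 18.5-mel-rad and 66026700 for 28.5-Ctrl, and the 8 genes named vtg, which code for vitellogenins, egg-yolk precursors made by the liver, took 1.71%, 30.5%, 36.7% and 55.5% of them. A scale that makes these totals equal would add 2.14 to every log2 fold change for 18.5-mel, 1.19 for 28.5-rad and 0.78 for 18.5-mel-rad, and a scale on the totals without vitellogenins would add 0.99, 0.54 and 0.27. Such a shift is the same for every gene, and no share of all genes called on these 2 scales is given here. Counts of members on them are therefore not set against a background. All 15 oocyte markers tested were upregulated in 18.5-mel (median 7.26) and 5 of 15 in 28.5-rad (median 2.69), while none of 15 was called in 18.5-mel-rad, where the median was −1.35. Their summed estimated counts were 65158 for 18.5-mel, 3159 for 28.5-rad and 251 for 18.5-mel-rad, against 562 in 28.5-Ctrl. All 12 hepatocyte markers were present in every group, with sums of 1538090, 1338900 and 3366590 in the same treated groups against 3404220 in 28.5-Ctrl. In 28.5-rad 5 of 6 enterocyte markers were upregulated. In a whole tissue, fewer cells of a type and less RNA per cell cannot be told apart.

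In 18.5-mel against 28.5-Ctrl, all 8 eIF3 genes and all 4 testable eEF1 genes were downregulated on the deposited scale. On equal totals without vitellogenins eif3f, eif3g, eif3m, eif3s6ip and the 4 eEF1 genes stayed called, and on equal totals none of the 12 was. The cap-binding gene eif4e1b stood far above its control level. Of 36 members 35 could be tested, and 20 were called, 4 upregulated and 16 downregulated. Among all 8177 genes with a human ortholog tested in this comparison 33.6% were called, 24.3% upward and 9.36% downward. The median log2 fold change was −0.71 over the members and 0.38 over all these genes, a gap of −1.09 that no common scale moves. The split of the calls does move with the scale. On equal totals without vitellogenins 13 members were upregulated and 9 downregulated, and on equal totals 20 and 1. Every gene moves by the same amount on these scales, and the share of all genes called on them is not given. Called in the same direction on all 3 scales were eif1b, eif2b3, eif4e1b and eif4ebp1 upward and eef2l2 downward. Both other scales add to every value in 18.5-mel, so an upward estimate could only grow. They put only the downward calls to a test. The member left untested in the 3 comparisons with control was eef1a2, a tissue-restricted form of eEF1A in mammals, with a mean count of 0.188.

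**Figure D1:**
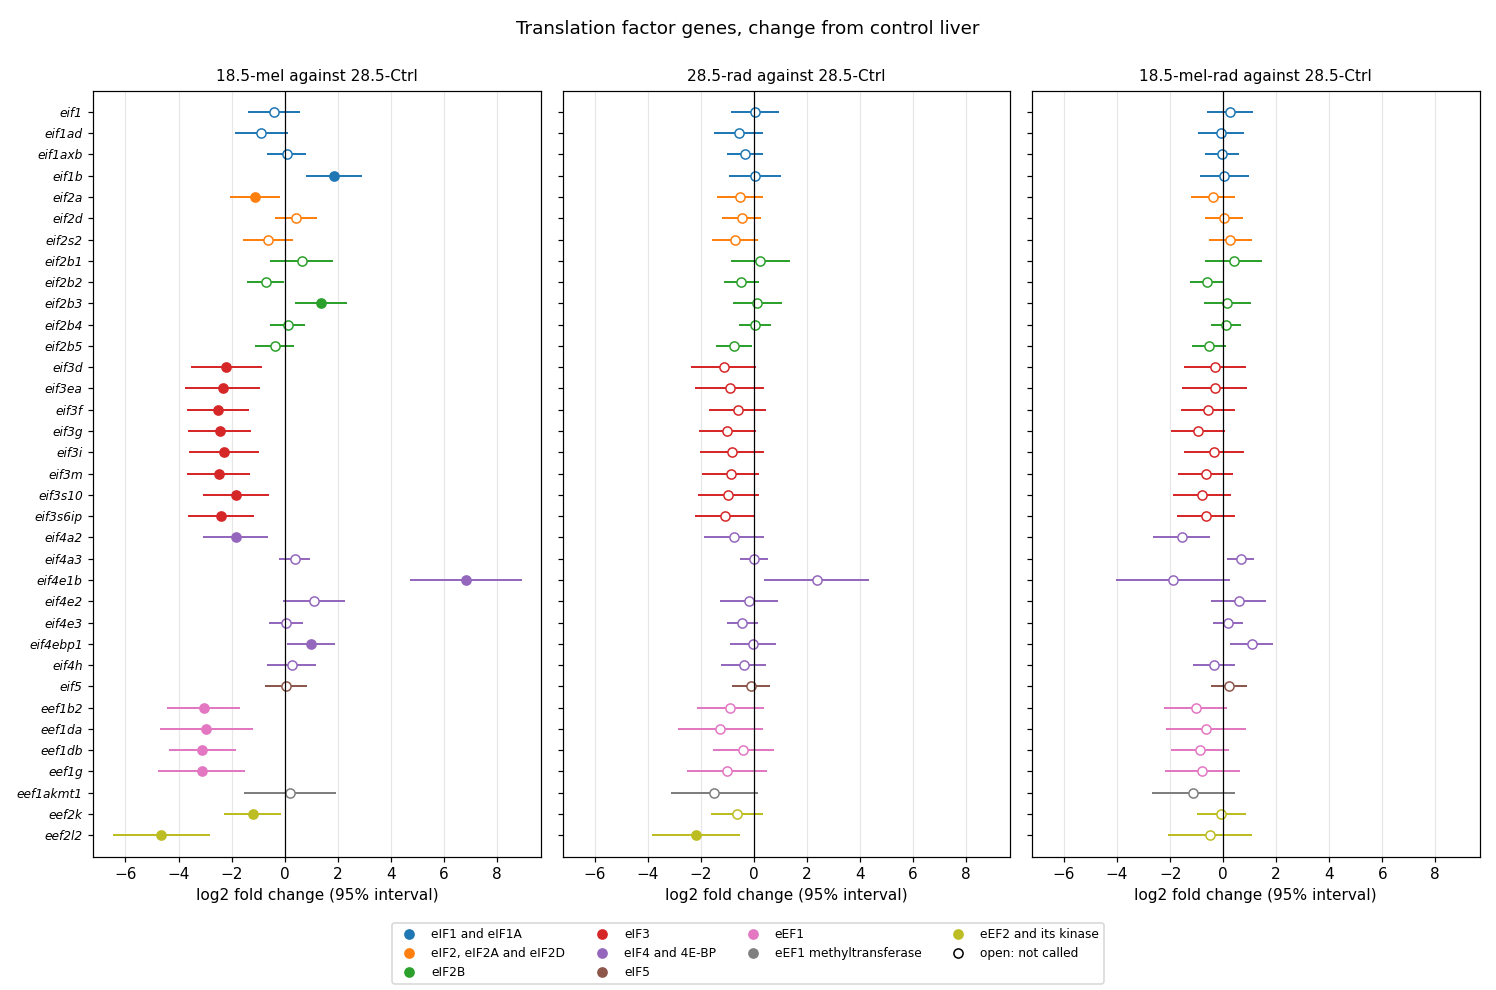
Log2 fold change of 35 members against 28.5-Ctrl, with 95% intervals, 1 panel per treated group; filled points were called and colours give the role. In 18.5-mel the 8 eIF3 and 4 eEF1 genes lie between −1.83 and −3.13 on the scale of the deposited tables. On equal totals the 8 eIF3 genes lie between −0.38 and 0.30, and without vitellogenins eif3f, eif3g, eif3m, eif3s6ip and the 4 eEF1 genes stayed called down. In 28.5-rad 1 filled point is left, and none in 18.5-mel-rad.

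eIF3 is the largest initiation factor, a complex that binds the small ribosomal subunit and helps to recruit the mRNA. On the deposited scale, though not on equal totals, all 8 of its subunit genes in the set were downregulated in 18.5-mel, with log2 fold changes from −1.83 to −2.52 and a median of −2.37. The smallest estimate belonged to eif3s10, which codes for the scaffold subunit eIF3a. It was at an estimated 5884 counts in 18.5-mel against 20982 in 28.5-Ctrl, a change of −1.83 (standard error 0.62, adjusted p = 0.0182). The largest belonged to eif3f, one of the subunits with an MPN domain, at 1760 counts in 18.5-mel against 10074 in 28.5-Ctrl, 5.72-fold lower at −2.52 (standard error 0.58, adjusted p = 0.000255). The 8 genes lay close to each other, within a span smaller than the 95% interval of any of them. Among them, eif3d, whose product can itself contact the cap in human cells, had −2.20 (standard error 0.66, adjusted p = 0.0069). The subunit genes eif3m and eif3ea had −2.49 (adjusted p = 0.000372) and −2.34 (adjusted p = 0.00665). For eif3g, which carries an RNA-binding domain, and eif3i, a WD-repeat subunit, the values were −2.45 (adjusted p = 0.000386) and −2.28 (adjusted p = 0.00396), and for eif3s6ip, the eIF3l gene, −2.39 (adjusted p = 0.00118). Relative to the median gene with a human ortholog, the eIF3 median was 2.75 lower on the log2 scale under any common scaling. On equal totals without vitellogenins the eIF3 median was −1.37, with 4 of 8 genes called down (eif3f, eif3g, eif3m and eif3s6ip), and on equal totals it was −0.23 with none of 8 called. As a share of all estimated counts, eIF3 made up 0.161% for 18.5-mel, 0.206% for 28.5-rad and 0.205% for 18.5-mel-rad, against 0.174% in 28.5-Ctrl.

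The eEF1B complex returns eEF1A to its GTP-bound state after each round of transfer RNA delivery, and all 4 of its subunit genes were downregulated in 18.5-mel within a narrow range on the deposited scale. The gene of the gamma subunit, eef1g, was at an estimated 11083 counts in 18.5-mel against 96860 in 28.5-Ctrl, 8.74-fold lower (−3.13, standard error 0.81, adjusted p = 0.00145). For eef1b2, which codes for a subunit with exchange activity, the estimates were 1715 counts in 18.5-mel and 14202 in 28.5-Ctrl (log2 fold change −3.05, adjusted p = 0.000155). The paralogues eef1da and eef1db, both named for the delta subunit, had log2 fold changes of −2.95 (adjusted p = 0.00577) and −3.10 (adjusted p = 2.06e-05). Expressed per total count, the eEF1 genes took 0.137% of the estimated counts for 18.5-mel, 0.289% for 28.5-rad and 0.263% for 18.5-mel-rad, against 0.261% in 28.5-Ctrl. The 4 genes stayed called on equal totals without vitellogenins (median −2.08) and none of them on equal totals, where the median was −0.94. The lysine methyltransferase gene eef1akmt1, whose product modifies eEF1A, had 0.19 (standard error 0.87, adjusted p = 0.904) and was counted low, with a mean of 33.7.

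The elongation factor eEF2 moves the ribosome by 1 codon. Its relative eef2l2, which the table pairs with human EEF2, was at an estimated 21.4 counts for 18.5-mel, 118 for 28.5-rad and 380.3 for 18.5-mel-rad, against 535 in 28.5-Ctrl. The fall in 18.5-mel was 25.1-fold, on the log2 scale −4.65 (standard error 0.91, adjusted p = 1.34e-05), and the largest negative value in the set. It was also the only member called down in 18.5-mel on all 3 scales. The mean count was 259 for eef2l2 and 221583 for eef2b, an eEF2 gene that is not a member. On the deposited scale eef2b was called down in 18.5-mel as well, at −3.16 (standard error 0.87), but as given below it was not called on equal totals. Of the other eEF2 genes that are not members, eef2a.1 was called down on the deposited scale (−2.46, adjusted p = 0.000956). eef2a.2, with a mean count of 9.02, was not (−1.88, adjusted p = 0.409). Whether eef2l2 differed from these genes was not tested. For eef2k, the kinase that inactivates eEF2, the value was −1.20 (standard error 0.53, adjusted p = 0.0798), a call lost with a t distribution of 9 degrees of freedom. On equal totals its estimate was 0.93 and was not called.

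**Figure D2:**
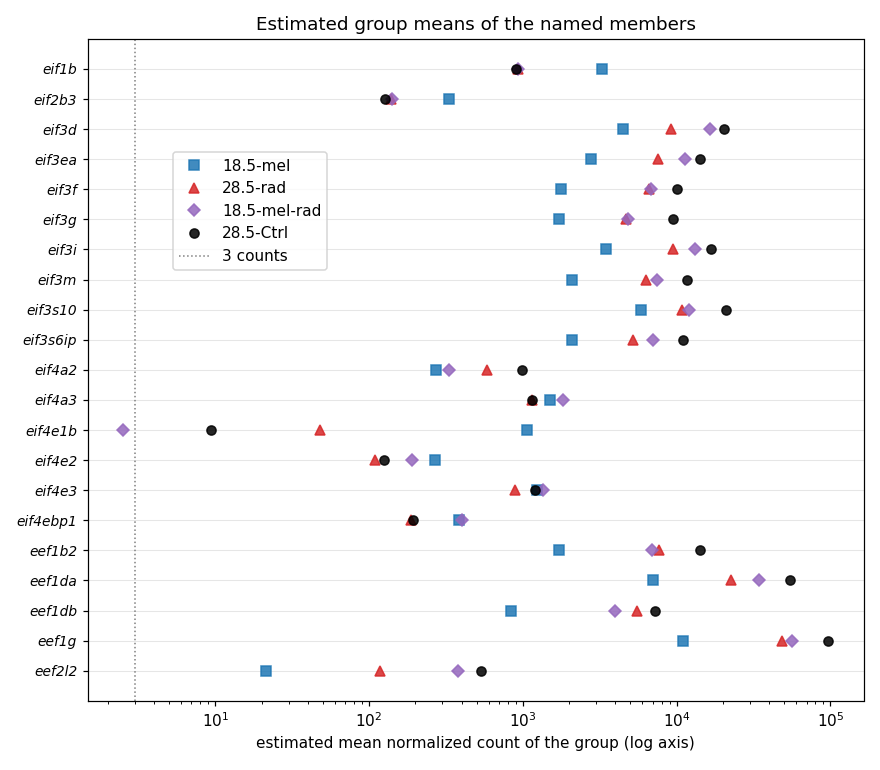
Estimated mean normalised counts (log axis) of the 21 named members, with 1 marker for each of 18.5-mel, 28.5-rad, 18.5-mel-rad and 28.5-Ctrl; the dotted line marks 3 counts. The 8 eIF3 and 4 testable eEF1 genes are lowest in 18.5-mel and highest in 28.5-Ctrl, whereas eif1b, eif2b3 and eif4e1b are highest in 18.5-mel. Levels are on the scale of the deposited tables. On equal totals none of the 12 eIF3 and eEF1 genes was called in 18.5-mel. Without vitellogenins eif3f, eif3g, eif3m, eif3s6ip and the 4 eEF1 genes stayed called down.

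The eIF4 group, which recognises the cap and unwinds the leader of the mRNA, moved in no single direction in 18.5-mel, with 2 of its 7 genes up and 1 down. eif4e1b codes for a cap-binding relative of eIF4E that is known from oocytes of frogs and mammals. It was at an estimated 1068 counts for 18.5-mel, 48.1 for 28.5-rad and 2.52 for 18.5-mel-rad, against 9.32 in 28.5-Ctrl, so it was under 3 counts in 18.5-mel-rad and low in the controls. On the log2 scale it differed by 6.84 (standard error 1.05, adjusted p = 1.25e-08) in 18.5-mel, 115-fold and the largest value of the set. Its 95% interval ran from 4.78 to 8.90. In 28.5-rad the estimate was 2.37 (standard error 0.99, adjusted p = 0.12) and did not pass the threshold, and in 18.5-mel-rad it was −1.89 (standard error 1.07, adjusted p = 0.599), or −1.64 with the treated group held at 3 counts. The oocyte markers given above are high and low in the same groups as eif4e1b, and their part in the result was not tested. The poly(A)-binding protein gene pabpc1l, an oocyte form in mammals, followed the same order, with 7.96 (standard error 1.39, adjusted p = 6.58e-07) for 18.5-mel, 3.61 (adjusted p = 0.0645) for 28.5-rad and −0.78 (adjusted p = 0.951) for 18.5-mel-rad.

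**Figure D3:**
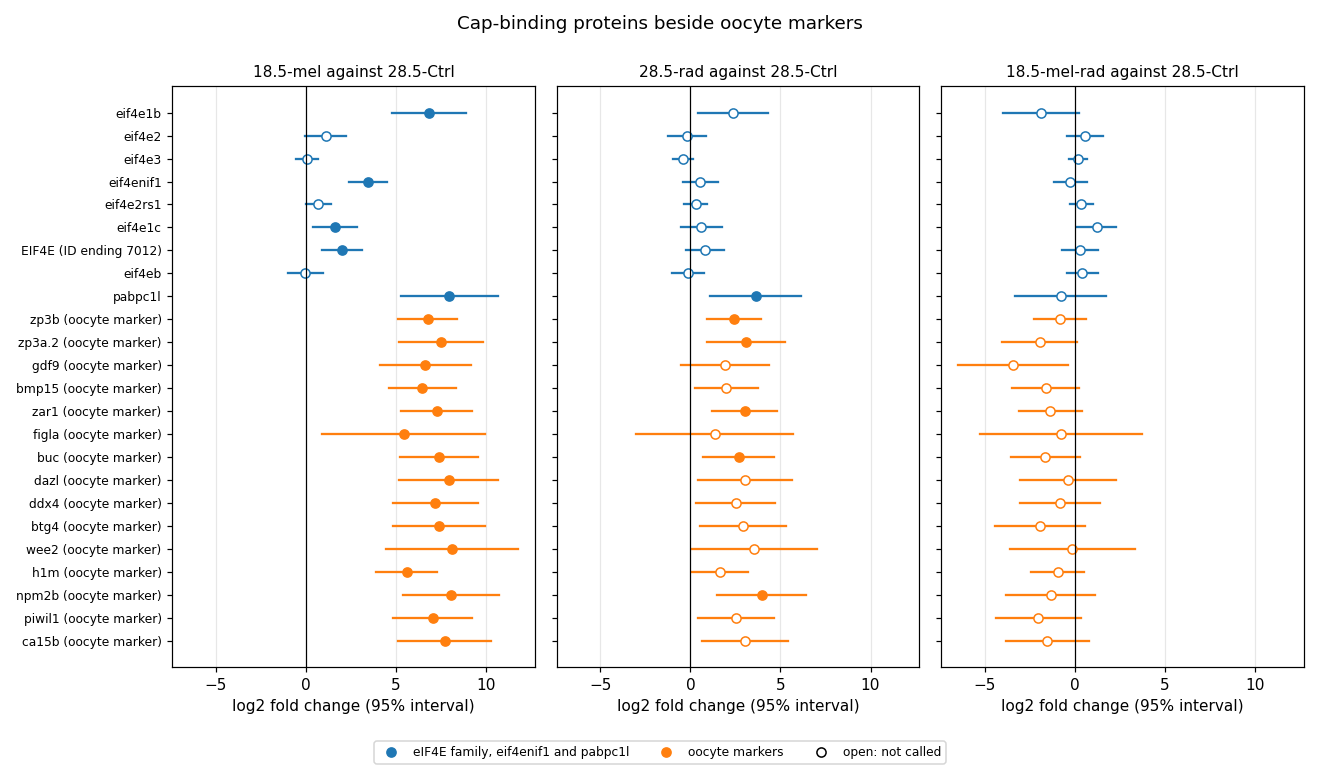
Log2 fold change against 28.5-Ctrl with 95% intervals for the genes of the eIF4E family, eif4enif1 and pabpc1l (blue) and for 15 oocyte markers (orange), 1 panel per treated group; filled points were called. eif4e1b (6.84, 2.37 and −1.89) and pabpc1l lie at the height of the oocyte markers in each panel, while eif4e2 and eif4e3 were not called in any panel. eif4e1c, eif4enif1 and a gene named EIF4E were called upward in 18.5-mel and in no other panel.

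The other cap-binding members, eif4e2, whose product competes with eIF4E for the cap and represses translation in mammals, and eif4e3, were at 2.15-fold (adjusted p = 0.159) and 1.03-fold (adjusted p = 0.952) of the control in 18.5-mel and were not called. eif4ebp1 codes for 4E-BP1, which holds eIF4E away from the ribosome when TOR signalling is low. It was at an estimated 383 counts for 18.5-mel, 187 for 28.5-rad and 405 for 18.5-mel-rad, against 193 in 28.5-Ctrl. The change was 0.99 (standard error 0.45, adjusted p = 0.0925) in 18.5-mel and 1.07 (standard error 0.40, adjusted p = 0.221) in 18.5-mel-rad. The first passed the threshold, but not with a t distribution, with centring on the median, or with adjustment over all genes with a p-value. The difference of 18.5-mel-rad from 18.5-mel was 0.08 (95% interval −0.68 to 0.84). The helicase gene eif4a2 was lower in 18.5-mel, at 274 counts against 989 in 28.5-Ctrl (−1.85, adjusted p = 0.0145), but stood at 0.28 on equal totals. eif4a3, a helicase of the exon junction complex, had 0.38 (standard error 0.28, adjusted p = 0.338), and eif4h, which stimulates eIF4A, had 0.27 (standard error 0.45, adjusted p = 0.72).

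Of the 7 members grouped by name as eIF1, eIF1A, eIF2, eIF2A and eIF2D, 5 were not called in 18.5-mel. The group holds factors that set the start codon or carry the initiator transfer RNA, and also eif1ad, which joined by name only. eif1b, a close relative of eif1, which keeps the scanning ribosome from starting at the wrong codon, was upregulated, with 3265 estimated counts in 18.5-mel against 905 in 28.5-Ctrl (3.61-fold, log2 fold change 1.85, standard error 0.52, adjusted p = 0.0033). eif1 itself had −0.39 (adjusted p = 0.602), eif1axb, an eIF1A gene, 0.09 (adjusted p = 0.894), and eif1ad, whose product holds an eIF1A-like domain, −0.88 (adjusted p = 0.182). Of the eIF2 group, eif2a, which codes for an initiator transfer RNA binding protein distinct from the alpha subunit of eIF2, was downregulated (−1.12, adjusted p = 0.0595). That call did not hold with a t distribution and turned to an upward call, at 1.01, on equal totals. The beta subunit gene eif2s2 (−0.64, adjusted p = 0.336) and eif2d, which codes for another factor that binds initiator transfer RNA (0.42, adjusted p = 0.461), were not called. The genes of the other eIF2 subunits are not members and are given below with the further genes of the name pattern.

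eIF2B recharges eIF2 with GTP and is the point where stress signals slow initiation. All 5 subunit genes were in the set, and 1 of them was called in 18.5-mel. eif2b3, the gamma subunit gene, was at 331 counts in 18.5-mel against 128 in 28.5-Ctrl, with a change of 1.37 (standard error 0.49, adjusted p = 0.0255). A t distribution took that call away. eif2b1, eif2b2, eif2b4 and eif2b5 had 0.64, −0.71, 0.11 and −0.38 with adjusted p-values of 0.115 or more. eif5, which triggers GTP hydrolysis by eIF2, was at 4518 counts in 18.5-mel against 4355 in 28.5-Ctrl (0.05, adjusted p = 0.942), and was not called.

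Most of the downregulated members had high counts. Of the 20 members with a mean count of at least 1000, 13 were downregulated and 1 upregulated in 18.5-mel, with a median log2 fold change of −2.24. Of all 868 genes with a human ortholog tested at such counts 30.1% were downregulated and 6.45% upregulated, and their median was −0.69. The 15 members tested under 1000 counts had 3 calls in each direction and a median of 0.19. The hepatocyte markers lay on the same side on the deposited scale, with 12 of 12 estimates negative, a median of −1.17 and 1 call (tfa, which codes for transferrin, −2.60). The shift to equal totals given above applies to these estimates as well. Their part in the falls was not tested.

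**Figure D4:**
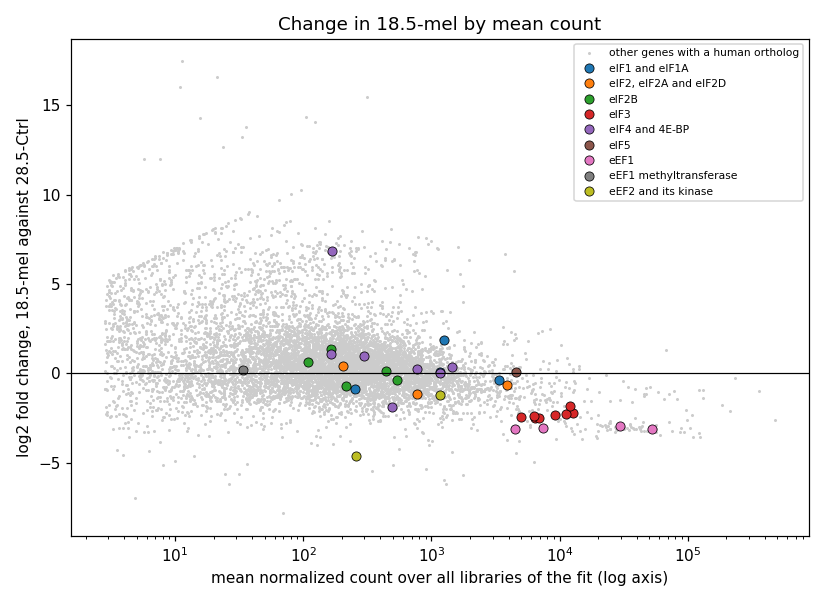
Log2 fold change in 18.5-mel against 28.5-Ctrl plotted against the mean normalised count over all libraries of the fit (log axis); grey points are the other genes with a human ortholog and coloured points the members by role. On the deposited scale the 8 eIF3 and 4 testable eEF1 genes, all with mean counts of at least 1000, lie below the median of −0.69 for genes of at least 1000 counts.

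Radiation at 28.5 °C left 1 member called. In 28.5-rad against 28.5-Ctrl 0 members were upregulated and 1 was downregulated, where 9.07% of 7740 genes tested were called, 7.02% upward and 2.05% downward. At an unadjusted p under 0.05 there were 1 upward and 2 downward, beside 1020 and 407 of the 7740 genes. At an adjusted p of at most 0.4 there were 1 and 12, where 33.2% of genes passed, 21.6% upward and 11.6% downward. The called gene was eef2l2, with 118 estimated counts in 28.5-rad against 535 in 28.5-Ctrl, 4.53-fold lower (−2.18, standard error 0.83, adjusted p = 0.0854). With a t distribution of 9 degrees of freedom, or adjusted over all genes with a p-value, it was not called, and on equal totals its estimate of −0.99 was not called either. The members' estimates were negative for 29 of 35, with a median of −0.58 against 0.08 over all genes with a human ortholog. The 8 eIF3 genes ranged from −0.62 to −1.15 (median −0.94), with adjusted p-values of 0.221 or more, and the 4 eEF1 genes from −0.40 to −1.26 (median −0.95). eif2b5, the catalytic subunit gene of eIF2B, had −0.75 (standard error 0.32, adjusted p = 0.133). On equal totals 14 members were called, all upward, and without vitellogenins 1, upward. The same shift applies to all genes, whose share called on these scales is not given, so these counts are no result about the members. On any common scale the members' median stays below that over all genes with a human ortholog, while its sign depends on the scale. Of the other cell types, 3 of 7 immune markers were upregulated in 28.5-rad beside the enterocyte and oocyte markers above. On the deposited scale all 12 hepatocyte estimates were negative (median −1.40, none called). Their part in these values was not tested.

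In the combined group no member was called. For 18.5-mel-rad against 28.5-Ctrl the Wald test with Benjamini-Hochberg adjustment called 0 of 35 members, where 1.46% of 7853 genes with a human ortholog were called, 1.02% upward and 0.446% downward. An unadjusted p under 0.05 was found for 4 members, 2 in each direction, beside 473 upward and 277 downward of the 7853 genes. A t distribution, centring on the median, and adjustment over all genes with a p-value also gave 0. At the looser adjusted p of 0.4, eif4a3 (0.65, adjusted p = 0.228) and eif4ebp1 were above and eif4a2 (−1.57, adjusted p = 0.139) was below the control, where 5.97% of genes passed, 3.87% upward and 2.1% downward. The median over the members was −0.34 against 0.06 over all genes with a human ortholog. The eIF3 genes lay between −0.31 and −0.97 and the 4 eEF1 genes between −0.66 and −1.04, all negative on this scale and none called. eef2l2, at 380.3 counts in 18.5-mel-rad against 535 in 28.5-Ctrl, had −0.49 (standard error 0.79, adjusted p = 0.946). For the eIF3 genes the 95% intervals reached as low as −1.95, so falls of up to that size lie inside the error. On equal totals 10 members were called, all upward, and without vitellogenins 2, with no share of all genes given for these scales. Of the exocrine pancreas markers none of 6 was called, with a median of 4.32 and 5 at an unadjusted p under 0.05, beside 1713 of all 17979 genes. The medians of these markers were 2.37 in 18.5-mel and 1.99 in 28.5-rad, with none called there either. Their part was not tested.

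Whether the irradiated torpor livers differed from the torpor livers was tested directly. In 18.5-mel-rad against 18.5-mel, 16 members were called, 13 higher and 3 lower in 18.5-mel-rad, where 27.2% of 9122 genes were called, 6.75% upward and 20.4% downward. At mean counts of at least 1000, 12 of 20 members were higher and 1 lower, where 30.6% of 868 genes were called, 25.5% upward and 5.18% downward. The eIF3 gene eif3d was at 16387 estimated counts in 18.5-mel-rad against 4451 in 18.5-mel, and 7 of 8 eIF3 genes were higher in 18.5-mel-rad, by 1.49 to 2.03 on the log2 scale. The 8th, eif3s10, had a difference of 1.04 (standard error 0.54, adjusted p = 0.212). All 4 measurable eEF1B genes were higher, by 2.01 to 2.35, with eef1g at 56316 counts in 18.5-mel-rad and 11083 in 18.5-mel. eef2l2 was higher by 4.15 (standard error 0.79, adjusted p = 7.36e-06) and eef2k by 1.13 (adjusted p = 0.0757). In the other direction eif4e1b (−8.73, adjusted p = 8.47e-16), eif1b (−1.80, adjusted p = 0.00103) and eif2b3 (−1.23, adjusted p = 0.0282) were lower in 18.5-mel-rad. On the deposited scale all 15 oocyte markers tested were lower as well, with a median difference of −8.61. All 12 hepatocyte estimates were higher on that scale, with a median of 1.05 and 2 calls. The part of either was not tested. With the variance of the shared controls left in, only eif4e1b and eef2l2 remained called. On equal totals without vitellogenins 4 members were higher and 10 lower, and on equal totals 1 and 16. eef2l2 was higher and eif4e1b, eif1b and eif2b3 were lower on all 3 scales. Both other scales lower every difference here, so they put only the call of eef2l2 to a test. Whether the effect of radiation depended on torpor was tested as an interaction, which called 17 members, 15 upward and 2 downward, where 25.7% of genes were called, 7.21% upward and 18.5% downward. At mean counts of at least 1000 it called 14 of 20 members upward and 1 downward, where 37.8% of 868 genes were called, 30% upward and 7.83% downward. The interaction turned to 1 upward and 19 downward on equal totals. Shares of all genes called on the other scales are not given for either test.

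**Figure D5:**
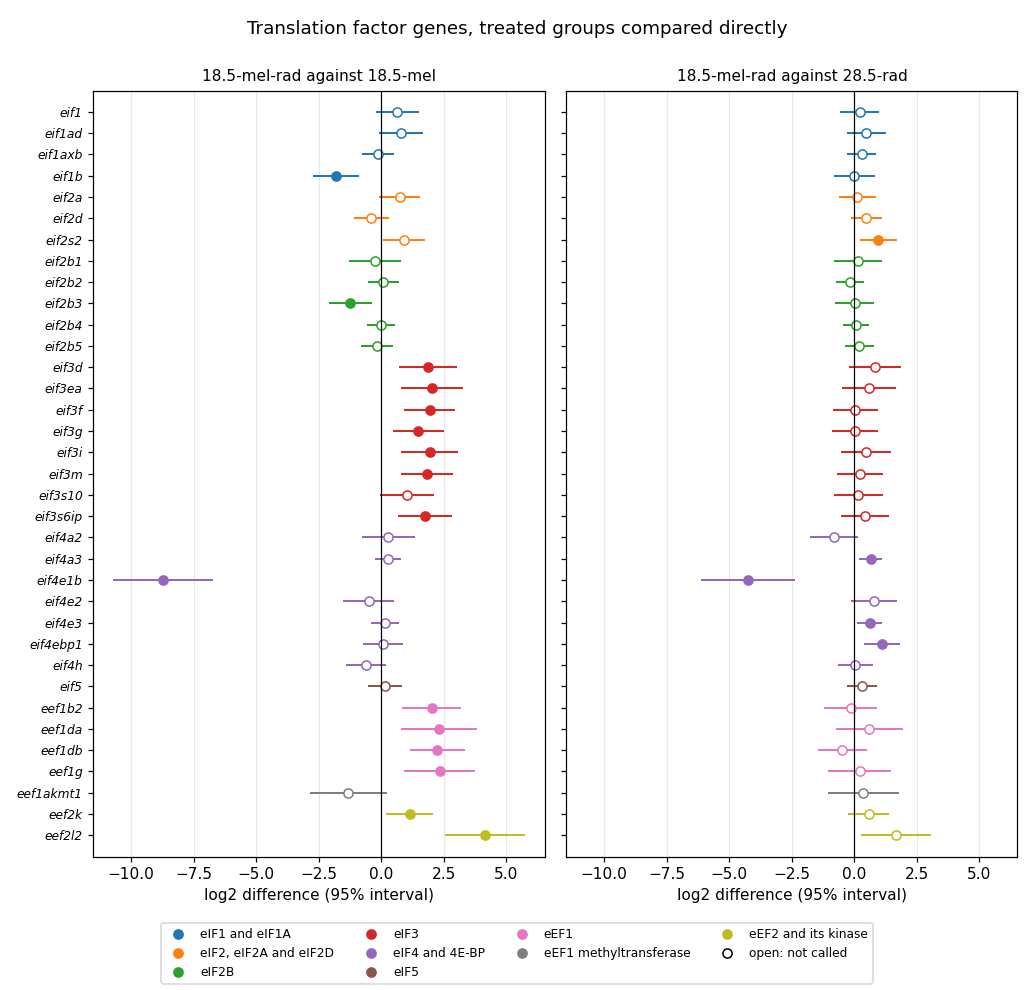
Log2 difference of 35 members with 95% intervals for 18.5-mel-rad against 18.5-mel and for 18.5-mel-rad against 28.5-rad; filled points were called and colours give the role. On the scale of the deposited tables the eIF3 and eEF1 genes, eef2l2 and eef2k lie above 0 in 18.5-mel-rad against 18.5-mel. On equal totals only eef2l2 was called higher there, and without vitellogenins eif3f, eef1db, eef1g and eef2l2 were. eif4e1b lies far below 0 in both panels, at −8.73 and −4.26.

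Between the irradiated groups few members were called. In 18.5-mel-rad against 28.5-rad 5 members were called, where 9.75% of 9122 genes were, 3.26% upward and 6.49% downward. Higher in 18.5-mel-rad were eif4ebp1, with 405 counts against 187 in 28.5-rad (difference 1.11, adjusted p = 0.0261), eif2s2 (0.97, adjusted p = 0.0707), eif4a3 (0.66, adjusted p = 0.0349) and eif4e3 (0.62, adjusted p = 0.0885). eif4e1b was lower (−4.26, standard error 0.94, adjusted p = 0.000536). None of the 5 was called with a t distribution of 9 degrees of freedom or with the control variance left in. On equal totals, with or without vitellogenins, eif4e1b kept its call and the 4 upward calls were lost. Both scales lower every difference here, so the downward call of eif4e1b was not put to a test. The eIF3 differences ran from 0.04 to 0.83 and none was called. Among the markers on the deposited scale, 13 of 15 oocyte genes (median −4.32) and 5 of 6 enterocyte genes (median −6.78) were called lower in 18.5-mel-rad. On the same scale 5 of 12 hepatocyte genes were called higher, with all 12 estimates positive (median 1.14). The part of these markers in the members' values was not tested.

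Other genes of the pathway were taken from lists that hold no member. Of all genes tested, 30% were called in 18.5-mel (20.4% upward, 9.65% downward). In 28.5-rad 11.8% were called (9.69% upward, 2.08% downward), and in 18.5-mel-rad 1.45%. Of the 4 kinases that phosphorylate eIF2, 1 was downregulated in 18.5-mel and 1 in 28.5-rad, in both cases eif2ak4, the kinase GCN2 that senses uncharged transfer RNA. Its value was −1.01 (standard error 0.38, adjusted p = 0.04) for 18.5-mel and −1.03 (standard error 0.35, adjusted p = 0.0535) for 28.5-rad. In the integrated stress response, the programme that phosphorylated eIF2 sets off, 8 of 10 genes were tested and 3 were downregulated in 18.5-mel, where 9.65% of all genes were. These were impact, an inhibitor of GCN2 (−1.69, adjusted p = 0.0153), ddit3, a transcription factor of that response (−1.29, adjusted p = 0.0449), and gcn1, a partner of GCN2 (−1.59, adjusted p = 0.0925). None of these falls was called on equal totals with or without vitellogenins. On equal totals impact stood at 0.45, ddit3 at 0.85 and gcn1 at 0.55, and eif2ak4 was called upward at 1.13 in 18.5-mel and stood at 0.16 in 28.5-rad. None of the 8 stress response genes was called in 28.5-rad or in 18.5-mel-rad on the deposited scale, but on both other scales ddit3 was called upward in 28.5-rad, at 1.72 on equal totals. Of the 14 measured genes of the TOR pathway, which senses nutrients and drives translation, rheb was upregulated in 18.5-mel (4.90, standard error 1.34, adjusted p = 0.00255) and no other was called in any of the 3 comparisons. The estimated counts of rheb were 213 for 18.5-mel, 14.4 for 28.5-rad and 5.74 for 18.5-mel-rad, against 7.12 in 28.5-Ctrl. The summed oocyte markers have the same order of groups, and their part was not tested. mtor, the kinase itself, had −0.39 for 18.5-mel, −0.57 for 28.5-rad and −0.25 for 18.5-mel-rad. Of the 9 poly(A)-binding and cap partner genes tested, 1 was up and 1 down in 18.5-mel, the same number in 28.5-rad and none in 18.5-mel-rad. Beside pabpc1l, which was up in both, these were pabpc1a, the gene of the general poly(A)-binding protein, in 18.5-mel (−2.00, adjusted p = 0.000753) and cpeb4a, the gene of an RNA-binding protein, in 28.5-rad (−1.85, adjusted p = 0.0921). On equal totals pabpc1a stood at 0.14 in 18.5-mel and cpeb4a at −0.66 in 28.5-rad, neither called. The upward calls of rheb and pabpc1l were kept, which that scale could not test because it raises every value. None of the 4 recycling and rescue genes, which free ribosomes after or during translation, was called in the 3 comparisons. Calls given without a scale are on the deposited one.

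The same name pattern applied to the whole zebrafish tables, after the data had been seen, found 47 further genes without an entry in the human-ortholog tables, 43 of them tested. In 18.5-mel 7 were upregulated and 12 downregulated, where 30% of 19554 genes were called, 20.4% upward and 9.65% downward. None of the 43 was called in 28.5-rad, where 11.8% of genes were called (9.69% upward, 2.08% downward). There 1 of the 43 had an unadjusted p under 0.05, beside 4009 of 17459 genes. None was called in 18.5-mel-rad either, where 1.45% were called (1.02% upward, 0.428% downward). In that comparison 5 of the 43 had an unadjusted p under 0.05, beside 1713 of 17979 genes. Among those downregulated in 18.5-mel were the elongation factor genes eef1a1l1, which codes for eEF1A (−3.07, adjusted p = 0.000469), and eef2b, which codes for eEF2 (−3.16, adjusted p = 0.00269). eif5a, whose product helps the ribosome past difficult peptide bonds, had −2.65 (standard error 0.75, adjusted p = 0.00384), and the helicase gene eif4a1b was at 1213 estimated counts in 18.5-mel against 9701 in 28.5-Ctrl (adjusted p = 0.000249). Of the eIF2 subunit genes, EIF2S3B had −2.58 (adjusted p = 0.00244) and 1 of the pair named EIF2S1 −2.58 (adjusted p = 0.000342) on the deposited scale. The other EIF2S1 had 0.25 (adjusted p = 0.668) and was not called. The eIF3 genes named EIF3CL and EIF3K and the called one of the pair named EIF3B had −2.69, −2.29 and −2.15, within the range of the 8 eIF3 members or just below it, and 1 of the pair named EIF3H had −2.30. Of the further eIF3 genes tested, 4 were not called. The other EIF3H had −0.48 (adjusted p = 0.662), the pair named EIF3J −0.42 (adjusted p = 0.522) and −0.31 (adjusted p = 0.543), and EIF3E 0.64 (adjusted p = 0.484). Their copies make all these values uncertain. On equal totals eef1a1l1 stood at −0.94, eef2b at −1.02, eif5a at −0.51 and eif4a1b at −0.86, none of them called. eif4a1a, another eif4a1 gene, had 1.35 (standard error 0.70, adjusted p = 0.154) and was not called.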

How the data were processed

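Per the labels and the methods, liver RNA (100 ng) was sequenced as single-end reads, checked with FastQC, trimmed with Cutadapt, aligned to GRCz11 with STAR, counted with HTSeq and compared with DESeq2. Versions are not given in the sources used here. The authors deposited 6 tables, 3 with 32520 zebrafish genes and 3 with the 9411 genes that have a human ortholog. The deposited signal is the mean normalised count over the 14 libraries and 5 groups of the authors' fit, which includes 3 libraries of an 18.5-rad group not analysed here. The authors deposited log2 fold changes with standard errors, the Wald statistic as a score, and p-values with adjusted p-values. These are columns of the authors' own comparisons, and they are the only measurements in the tables used here. The methods state a minimum depth per library, and the depth of each library is unknown here, so precision is that of the deposited standard errors. Nothing says that the libraries of a group came from separate tanks, so p-values measure the spread between these libraries, which may be technical.

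Wald p-values were recomputed and adjusted across those genes for which the tables give one (largest difference 4.96e-08). Group means were solved from the mean count and the fold changes, with the log2 fold change of 18.5-rad set to the mean of those of 28.5-rad and 18.5-mel-rad. Direct differences used standard errors from which the variance of the shared controls was removed, adjusted over 27662 genes. They were run on simulated data with changes in 18.5-mel alone, no difference in scale between groups and no change in 18.5-rad. That simulation therefore cannot bear on the choice of scale or on the value set for 18.5-rad. Python 3.11.15, pandas 2.3.3 and scipy 1.17.1 were used. Members and lists were chosen with earlier results of these data known. Named genes were, per comparison, the 8 called members with the largest Wald statistic in each direction, the 10 members with the highest mean count, and the paralogues of eif4e, eef1a, eif4a, eif5a, eif4ebp and eef2; other members are named to complete their role group. Alternatives were a t distribution with 9 degrees of freedom, other adjustments, thresholds and filters, and, chosen after seeing the data, 2 other scales. Paralogues such as eif1 and eif1b, eef1da and eef1db or eif3ea and its copy may share 50-base reads, and how those were counted is not stated, so their values are uncertain. The files pair eef1da with human EFCC1. No sequences or coordinates were used.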

Additional observations from a re-analysis of the deposited data

Results flagged for a closer look

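On the deposited scale, 17 members were called in the interaction of radiation with torpor, which joins cold and melatonin. It was tested, after the data had been seen, as the log2 fold change of 18.5-mel-rad minus those of 18.5-mel and 28.5-rad (Wald test, Benjamini-Hochberg adjustment over 27662 genes), and a positive value means that the combined group lay above the sum of the single effects. Of the members 15 were positive and 2 negative, where 25.7% of 9122 genes with a human ortholog were called, 7.21% upward and 18.5% downward. Of the 15 positive members 14 had mean counts of at least 1000, and at such counts 30% of 868 genes were called upward and 7.83% downward, with a median of 1.00. All 8 eIF3 genes were positive, with 3.03 for eif3d, 2.94 for eif3ea, 2.56 for eif3f, 2.49 for eif3g, 2.76 for eif3i, 2.71 for eif3m, 2.00 for eif3s10 and 2.84 for eif3s6ip. The eEF1B genes followed with 2.90 for eef1b2, 3.56 for eef1da, 2.63 for eef1db and 3.35 for eef1g. The remaining positive values were 6.33 for eef2l2 (standard error 1.15, adjusted p = 2.61e-06), 1.78 for eef2k and 1.60 for eif2s2. Negative were eif1b at −1.84 (adjusted p = 0.0369) and eif4e1b at −11.1 (standard error 1.41, adjusted p = 1.09e-12).

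With a t distribution of 9 degrees of freedom 6 of the 17 were called. On equal totals eef2l2, eif1b and eif4e1b kept their call and direction, with 1 member positive and 19 negative in all. On equal totals without vitellogenins the same 3 did, with 1 positive and 11 negative. Both scales lower every interaction value, so of these 3 only the positive call of eef2l2 was put to a test. On the deposited scale all 15 oocyte markers tested had negative values in this contrast (median −11.63). All 12 hepatocyte markers had positive ones on that scale (median 2.59, 5 called), beside a median of 2.74 for the eIF3 genes. The part of either list was not tested.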

How the results depend on the processing

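No paired analysis was possible because the tables hold no value per library, so there was no replicate block and no fit without each library in turn. Whether a value is shared by the libraries of a group, and how depth limits it, is not shown by these tables.

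In 18.5-mel against 28.5-Ctrl a Wald test against a change of 0.58 called 12 members in place of 20, 1 up and 11 down. In 28.5-rad the count of 1 became 0 with a t distribution, with that Wald test and with adjustment over all genes with a p-value, and 13 at an adjusted p of 0.4. In 18.5-mel-rad the count of 0 became 3 at an adjusted p of 0.4. In 18.5-mel-rad against 18.5-mel the count of 16 became 2 with the control variance kept. In 18.5-mel-rad against 28.5-rad the count of 5 became 0 with a t distribution and with the control variance kept. In the interaction the count of 17 became 6 with a t distribution. These settings use wider errors, a stricter test or a looser threshold by construction. Apart from the adjusted p of 0.4, no share of all genes called is given for them, here or above. The counts of members under them are therefore not set against a background.

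Scaling the groups to equal totals, chosen after seeing the data, gave 14 members in 28.5-rad, 10 in 18.5-mel-rad and 2 in 18.5-mel-rad against 28.5-rad, and turned the medians over the members to 1.43 for 18.5-mel, 0.61 for 28.5-rad and 0.43 for 18.5-mel-rad. Without vitellogenins it gave 2 members in 18.5-mel-rad and 1 in 18.5-mel-rad against 28.5-rad, with medians of 0.28 in 18.5-mel and −0.035 in 28.5-rad. The split in 18.5-mel, 4 up and 16 down on the deposited scale, was then 20 and 1, or 13 and 9 without vitellogenins. No share of all genes called is given for these scales, so the counts are not set against a background. The contrasts between treated groups also turned. In 18.5-mel-rad against 18.5-mel, 13 higher and 3 lower became 1 and 16 (4 and 10 without vitellogenins) and the median of 0.46 became −0.90 (−0.26). In 18.5-mel-rad against 28.5-rad the median of 0.22 became −0.19 (−0.05). In the interaction 15 and 2 became 1 and 19 (1 and 11) and the median of 0.82 became −1.72 (−0.45). In the other 47 alternatives the number of members called stayed within 1.5 times, or the median moved by less than the members' median standard error. Such a median can still shrink towards 0, and the split by direction moved as given. The medians over one-to-one orthologs were set equal to the main ones rather than recomputed. Under the other assumptions tried for 18.5-rad, none of 264 estimated group means moved by more than 1 modelled standard deviation. The largest ratio to the main value was 1.27. Setting 18.5-rad equal to 18.5-mel was not among them. How far the means of genes such as eif4e1b would move under that assumption is therefore not shown.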

Other observations

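Of the 43 tested translation factor genes without an entry in the human-ortholog tables, 7 were upregulated in 18.5-mel. Among them were eif4enif1, which codes for the eIF4E transporter 4E-T (3.42, adjusted p = 1.93e-08), eif4e1c, a further cap-binding gene (1.61, adjusted p = 0.0455), and eif1axa (1.23, adjusted p = 0.0251). A gene named EIF4E (2.01, adjusted p = 0.00397) and eif5b (0.86, adjusted p = 0.076) were also upregulated. So was 1 of each pair named EIF4G2 (2.48, adjusted p = 0.000294) and EIF4G3 (1.31, adjusted p = 0.0666). The other EIF4G2 (0.24) and EIF4G3 (−0.22), EIF4G1 (0.48) and eif4eb (−0.05) were not called. In 18.5-mel-rad against 18.5-mel, eif4enif1 was lower, with a log2 difference of −3.67 (adjusted p = 3.16e-13), while eef1a1l1 and eef2b were higher, by 2.08 and 1.94. The estimated counts of eif4enif1 were 2497 for 18.5-mel, 342 for 28.5-rad and 196 for 18.5-mel-rad, against 233 in 28.5-Ctrl. That is also the order of the summed oocyte markers, whose part was not tested. eif4ebp3, which codes for another 4E-BP, had −0.58 (adjusted p = 0.522) in 18.5-mel and 1.14 (adjusted p = 0.421) in 18.5-mel-rad, and the difference between these groups was 1.71 (adjusted p = 0.00913). A separate gene named EIF4EBP3 went the other way, with 0.26 in 18.5-mel, −0.47 in 18.5-mel-rad and a difference of −0.73 (adjusted p = 0.352). For EIF4EBP2 the difference was 0.16 (adjusted p = 0.927). All these values are on the deposited scale. On equal totals eif4enif1, eif4e1c and eif1axa were called upward in 18.5-mel as well, at 5.56, 3.75 and 3.37, and eif4ebp3 was called upward at 1.56. That scale raises every value in 18.5-mel, so it could not test upward calls. For 18.5-mel-rad against 18.5-mel, where it lowers every difference, that scale gave −5.03 for eif4enif1, whose downward call was kept. It gave 0.72 for eef1a1l1, 0.58 for eef2b and 0.35 for eif4ebp3, none of them called.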
